A study of Rattus norvegicus with 6 samples.

Results

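Kinesins are motor proteins that use ATP to move along microtubules or to shorten them. The mitotic kinesins build the spindle, align and separate the chromosomes and drive the final cut between daughter cells, and their mRNAs are made mainly in the G2 and M phases of the cell cycle. Other kinesins carry vesicles, organelles and ciliary cargo through the cell, also in cells that do not divide, and in tubular epithelium kinesin-2 builds the primary cilium.

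The kinesin genes were taken as all rows of the count table whose symbol is Kif followed by a number and letters, or Kifc1, Kifc2 or Kifc3. These were 40 of 18930 rows. A set of 12 symbols was treated as mitotic (Kif2c, Kif4a, Kif11, Kif14, Kif15, Kif18a, Kif18b, Kif20a, Kif20b, Kif22, Kif23 and Kifc1), and the other 28 rows were kept as the comparison. After edgeR's filter on low counts, 30 kinesins were tested among 11870 genes, namely 11 mitotic and 19 other kinesins.

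RNA was measured in NRK-52E, an established epithelial line from rat kidney of wild-type genotype. The comparison was between 3 samples given vehicle (Control) and 3 given streptozotocin (STZ), a nitrosourea that alkylates DNA, at 10 mM for 24 h. Nothing in the sources used here says whether replicates were separate cultures, so p-values measure only the spread between these samples. Total counts were 10430924 to 15191349 per sample, and the common biological coefficient of variation was 3.25%. Of the epithelial markers, Krt8 had a mean of 14297 normalized counts in Control, whereas Krt18 and Cldn4 were near 0 and Epcam, Krt19 and Cldn7 had no row. The mesenchymal marker Vim had a mean of 24906 in Control. Of 8 proximal tubule markers only Aqp1 passed the filter, so the labelled epithelial identity rests on few genes. Summed epithelial markers were 13757 to 14685 normalized counts in Control and 19899 to 20105 in STZ, almost all of it Krt8, whereas Cdh1, the other epithelial marker tested, went from a mean of 32.1 to 20.4 (log2 fold change -0.69, FDR = 0.0296, edgeR). Summed over their list, mesenchymal markers, mostly Vim, were 24808 to 27572 in Control and 23867 to 24284 in STZ. Proximal tubule markers, mostly Aqp1, summed to 123 to 205 in Control and 71.4 to 85.0 in STZ. The part of these shifts in the kinesin values was not tested. Summed endothelial, leukocyte and neuronal markers did not exceed 29.9 normalized counts in any sample. In bulk RNA such as this, fewer cells of a kind and less RNA per cell cannot be told apart.

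Promoters of mitotic genes often hold the cell cycle genes homology region, a short element read here as TTTGAA or TTTAAA, and an upstream CCAAT box. RefSeq promoter windows of GRCr8, from 250 bases before the annotated start to 50 after it, were found for 30 of the 40 kinesins. TTTGAA or TTTAAA, searched on both strands, occurred in 9 of 11 mitotic windows (81.8%, Kif22 included) and in 2 of 19 other windows (10.5%), against 26.4% of the 21851 protein-coding promoters. CCAAT, on both strands, occurred in 7 of 11 mitotic and 6 of 19 other windows, against 38% of all. No motif overlapped another in the windows shown. Kif2c had 2 windows, of which 1 held TTTAAA and was counted. Median GC content was 61% in the mitotic, 63.7% in the other and 55% in all windows, and the part of base composition in these shares was not tested. A match describes letters and is not evidence of a bound site.

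The windows of 4 mitotic kinesins are shown to set larger beside smaller falls. Kif15, Kif11 and Kifc1 fell most among mitotic kinesins with a window, and Kif23 fell less. They lie at chr8:131479154-131479453 (plus strand), chr1:244536617-244536916 (plus strand), chr20:5000679-5000978 (plus strand) and chr8:71320535-71320834 (minus strand) in GRCr8. Each is written 5′ to 3′ along the gene, and capitals mark both hexamers and the CCAAT box, on either strand.
Kif15: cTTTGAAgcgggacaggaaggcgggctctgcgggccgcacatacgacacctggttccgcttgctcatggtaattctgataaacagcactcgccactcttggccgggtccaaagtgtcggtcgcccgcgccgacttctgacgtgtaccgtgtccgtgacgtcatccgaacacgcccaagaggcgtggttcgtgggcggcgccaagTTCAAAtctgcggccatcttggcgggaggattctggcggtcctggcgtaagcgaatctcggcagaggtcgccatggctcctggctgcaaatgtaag
Kif11: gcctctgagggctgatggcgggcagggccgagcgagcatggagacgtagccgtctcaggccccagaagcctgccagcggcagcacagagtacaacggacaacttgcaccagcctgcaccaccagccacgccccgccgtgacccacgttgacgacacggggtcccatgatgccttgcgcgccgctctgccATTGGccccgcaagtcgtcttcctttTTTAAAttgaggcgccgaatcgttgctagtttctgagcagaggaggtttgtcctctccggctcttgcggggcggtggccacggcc
Kifc1: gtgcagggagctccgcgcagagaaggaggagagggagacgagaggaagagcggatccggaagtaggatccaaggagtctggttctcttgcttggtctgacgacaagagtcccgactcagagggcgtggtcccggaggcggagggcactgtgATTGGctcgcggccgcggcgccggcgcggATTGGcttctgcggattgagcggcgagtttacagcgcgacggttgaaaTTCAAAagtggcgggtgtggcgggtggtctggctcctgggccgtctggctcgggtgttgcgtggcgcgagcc
Kif23: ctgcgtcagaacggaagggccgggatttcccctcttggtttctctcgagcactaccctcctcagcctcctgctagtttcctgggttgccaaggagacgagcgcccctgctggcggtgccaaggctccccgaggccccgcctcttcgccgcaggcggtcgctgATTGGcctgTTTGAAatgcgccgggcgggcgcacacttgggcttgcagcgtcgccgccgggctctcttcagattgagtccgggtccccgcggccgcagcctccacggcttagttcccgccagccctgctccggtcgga
Counted from the start, the first base of the hexamer nearest to it was at -46 in Kif15, -35 in Kif11, -22 in Kifc1 and -79 in Kif23. The first bases of the CCAAT matches were at -61 in Kif11, at -99 and -70 in Kifc1 and at -88 in Kif23, and the Kif15 window held none. TTTGAA occurred in the windows of Kif15 and Kifc1, which fell more, and of Kif23, which fell less, while Kif11 held TTTAAA. A link between hexamer and size of fall was not tested.

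Most mitotic kinesins were lower in STZ-treated cells, by small steps. Of the 11 tested, 9 were lower, 1 was higher and 1 did not pass the threshold of 0.05 on the false discovery rate (FDR, the Benjamini-Hochberg adjusted p over all genes tested, from the quasi-likelihood test of edgeR). Over all genes tested, 25.1% were lower and 25.9% higher by the same rule. The median log2 fold change of the mitotic kinesins was -0.17, with a range of -0.52 to 0.10, beside a median of -0.01 over all genes. None reached an absolute log2 fold change of 1, a threshold passed together with the FDR by 3.37% of all genes. All 11 had at least 293 reads in every sample, so none entered through one group alone. Without STZ replicate 1 the number lower was 5, and without Control replicate 3 it was 6.

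The motors that push the spindle poles apart, Kif15 and Kif11, were both lower. Kif15, which cross-links spindle microtubules and backs up Kif11, had 834, 746 and 796 normalized counts in the Control samples and 526, 575 and 563 in the STZ samples. Here a normalized count is the read count scaled to the mean TMM-adjusted library size. The groups were far apart relative to the spread within each. The log2 fold change of Kif15 was -0.52 (SE 0.06, FDR = 8.6e-10, edgeR), the largest fall among mitotic kinesins. Kif11 encodes Eg5, the motor that separates the poles in early mitosis and is the target of monastrol. It had 2127, 2164 and 2302 normalized counts in Control and 1749.8, 1718 and 1667 in STZ. Its log2 fold change was -0.36 (SE 0.04, FDR = 2.1e-09, edgeR).

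Kifc1, also called HSET, pulls in the opposite direction as a minus-end motor and focuses the poles. It had 1686, 1581 and 1713 normalized counts in Control and 1288, 1383 and 1329.6 in STZ, without overlap. The log2 fold change was -0.32 (SE 0.05, FDR = 1.5e-07, edgeR). Outward and inward motors of the spindle were thus both lower.

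Of the motors that act on chromosome alignment and attachment, Kif18a and Kif2c were lower and Kif18b did not pass. Kif18a dampens chromosome movement at the metaphase plate, and it had 498, 463 and 546 normalized counts in Control against 416, 452 and 439 in STZ. The highest STZ sample was just below the lowest Control sample, and the log2 fold change was -0.21 (SE 0.07, FDR = 0.0089, edgeR). Kif18a did not pass without Control replicate 3 (-0.14, FDR = 0.112) or without STZ replicate 1 (-0.18, FDR = 0.0577). Its relative Kif18b, which acts on astral microtubules, had 1152, 1090 and 1187 in Control and 1097, 1242 and 1229 in STZ. These groups overlapped, and the log2 fold change of Kif18b was 0.05 with a 95% interval of -0.05 to 0.16. Kif2c, or MCAK, depolymerizes microtubules at kinetochores to correct wrong attachments. It had 1616, 1478 and 1582 normalized counts in Control and 1352, 1374.5 and 1436 in STZ, with a log2 fold change of -0.17 (SE 0.05, FDR = 0.0022, edgeR). Kif22, the chromosome-arm motor Kid, had 0 reads in every Control sample and 0, 1 and 1 reads in the STZ samples, was not tested and gives no fold change. In the GRCr8 annotation the span of Kif22 overlaps LOC108349644. Whether its few reads reflect counting or expression was not tested.

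Of the cytokinesis motors, Kif14, Kif23, Kif4a and Kif20b were lower. Kif14, which recruits citron kinase to the midbody, had 469, 431 and 491 normalized counts in Control and 350.1, 317 and 401 in STZ. Relative to their mean its STZ samples were the most scattered of the mitotic set, yet all lay under the Control samples, and the log2 fold change was -0.37 (SE 0.08, FDR = 6.0e-05, edgeR). Kif23, the motor subunit of centralspindlin, had 2931, 3022 and 3058.5 in Control and 2675, 2737 and 2856 in STZ, a log2 fold change of -0.12 (SE 0.04, FDR = 0.0081, edgeR), and did not pass without STZ replicate 1 (-0.10, FDR = 0.0736). Kif4a, which limits the length of the central spindle, had 1374, 1248.5 and 1321 in Control and 1220.5, 1225 and 1185 in STZ. The fall of Kif4a, -0.12 on the log2 scale (SE 0.05, FDR = 0.0312, edgeR), missed the threshold in 5 of 15 other settings. Kif20b, which acts late in abscission, had 1699, 1720.5 and 1753 in Control and 1586, 1528 and 1639 in STZ, with a log2 fold change of -0.12 (SE 0.04, FDR = 0.0185, edgeR). The call of Kif20b was lost without Control replicate 3 (FDR = 0.0549), without STZ replicate 1 (FDR = 0.0532) and without STZ replicate 2 (FDR = 0.0982).

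Kif20a was the exception. It encodes MKLP2, which carries the chromosomal passenger complex to the central spindle in anaphase. Its normalized counts were 3885, 3879 and 3872 in Control and 4156.5, 4092 and 4247 in STZ. The Control samples were nearly equal and all STZ samples lay above them. The log2 fold change was 0.10 (SE 0.04, FDR = 0.0173, edgeR), and it stayed above 0 but did not pass with library size only (0.07, FDR = 0.107), under the upper quartile (0.08, FDR = 0.0544) or without STZ replicate 3 (0.09, FDR = 0.0727).

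**Figure D1:**
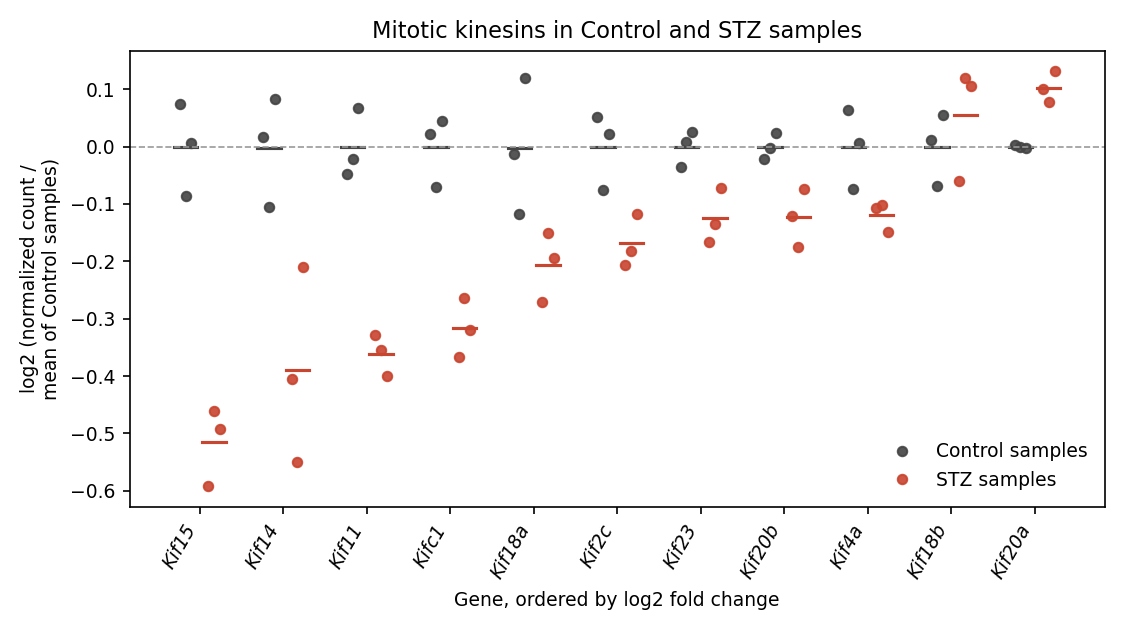
Normalized counts of the 11 mitotic kinesins tested, each divided by its Control mean and shown on a log2 scale (y axis), by gene (x axis). Points are single samples, 3 Control (grey) and 3 STZ (red), and short lines are means of the log2 values. STZ points lie under all Control points in 9 genes, overlap them in Kif18b and lie above them in Kif20a. Over all genes tested, STZ lay below Control without overlap in 27.7% and above it in 28.6%.

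Taking all kinesin reads as the whole, mitotic kinesins held 51.4%, 51.5% and 51.6% in the Control samples and 48.6%, 48.5% and 49.3% in the STZ samples. The groups did not overlap. Reads were not divided by transcript length, so highly expressed and long genes weigh most in this share, and it ranks no kinesin against another.

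The other kinesins did not move one way. Of the 19 tested, 5 were higher, 7 were lower and 7 did not pass, beside 25.9% and 25.1% of all genes. Their median log2 fold change was 0.03, with a range of -0.60 to 1.17, and the median changed sign with library size only (-0.01) and without Control replicate 2 (-0.01). Without Control replicate 2 or STZ replicate 1 the number higher was 3. Groups did not overlap in 5 genes with STZ above and 6 with STZ below, where 28.6% and 27.7% of all genes did so.

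**Figure D2:**
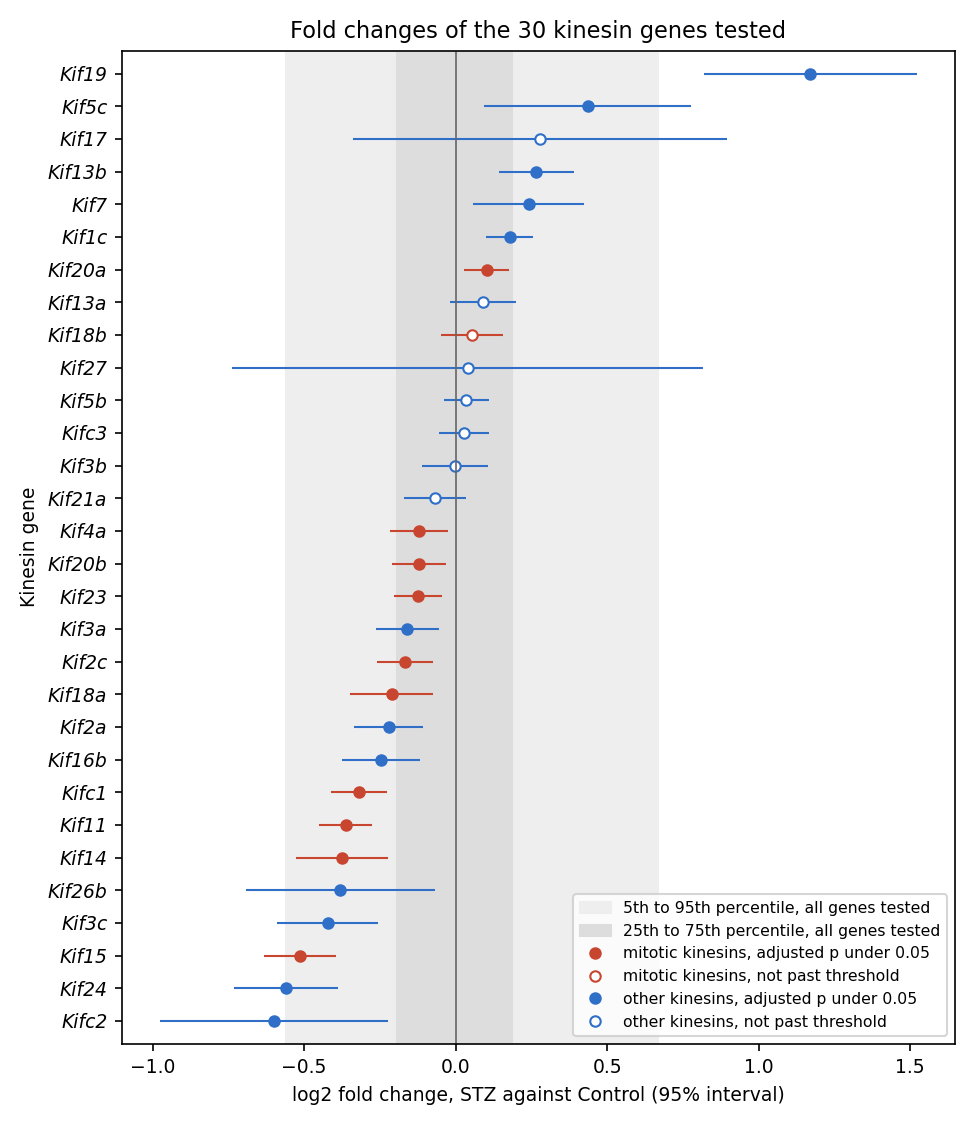
Log2 fold changes of the 30 kinesins tested, STZ against Control (x axis), with 95% intervals from the edgeR fit as bars, one gene per line (y axis). Red marks mitotic and blue other kinesins, filled points passed an FDR of 0.05, and grey bands give percentiles of all genes tested; mitotic kinesins run from -0.52 (Kif15) to 0.10 (Kif20a), while the other kinesins span -0.60 (Kifc2) to 1.17 (Kif19).

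Kif19 was the single kinesin past both thresholds. It belongs to the kinesin-8 family and controls the length of motile cilia by shortening microtubules at their tips. It had 35, 30 and 54 reads in Control and 102, 106 and 104 in STZ, or 41.1, 34.0 and 52.4 against 92.3, 115 and 86.4 normalized counts. Every STZ sample exceeded every Control sample, and the log2 fold change was 1.17 (SE 0.17, FDR = 3.1e-07, edgeR), with a 95% interval of 0.82 to 1.52. It passed in all 15 settings without a fold test, between 1.03 and 1.37, but not under glmTreat, which asks whether the change itself exceeds the fold threshold. In the GRCr8 annotation its span overlaps Btbd17, and whether reads were counted by strand is not given in the sources used here. The other kinesins of motile cilia, Kif6 and Kif9, had at most 6 and 11 reads in any sample and were not tested.

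Motors for cargo rose in part. Kif5b, the ubiquitous heavy chain of kinesin-1, had 4559, 4609 and 4873 normalized counts in Control and 4838, 4663 and 4894 in STZ. These groups overlapped, and the log2 fold change of Kif5b had a 95% interval of -0.04 to 0.11. Its neuronal relative Kif5c had 50, 45 and 64 reads in Control and 102, 72 and 77 in STZ, with a log2 fold change of 0.44 (SE 0.17, FDR = 0.0289, edgeR). One STZ sample was only slightly above the highest Control sample, and Kif5c missed the threshold in 4 of 15 other settings. Kif5a had at most 7 reads.

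Among kinesin-3 motors, Kif1c and Kif13b rose and Kif16b fell. Kif1c, which moves dense-core vesicles and integrins, had 3289, 3089 and 3271 normalized counts in Control and 3611, 3732 and 3585 in STZ, a log2 fold change of 0.18 (SE 0.04, FDR = 1.5e-04, edgeR). Kif13b, or GAKIN, had 530.4, 549 and 524 in Control and 666, 667 and 599.6 in STZ, a log2 fold change of 0.27 (SE 0.06, FDR = 3.1e-04, edgeR). Neither pair of groups overlapped, and both calls held in all 15 settings without a fold test. Kif16b carries early endosomes outward, and it had 553, 582 and 542 normalized counts in Control against 498, 471.5 and 445 in STZ. Its log2 fold change was -0.25 (SE 0.06, FDR = 0.0013, edgeR). Kif13a, which moves recycling endosomes, did not pass, with a log2 fold change of 0.09 and a 95% interval of -0.02 to 0.20.

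The kinesin-2 motors, which carry intraflagellar transport trains into the cilium, were unevenly affected. Kif3a had 970.4, 956 and 939.6 normalized counts in Control and 822, 849 and 892 in STZ, a log2 fold change of -0.16 (SE 0.05, FDR = 0.0084, edgeR), and did not pass without STZ replicate 1 (-0.13, FDR = 0.0650). Its heterodimer partner Kif3b had 1009, 864 and 896 in Control and 936, 905 and 922 in STZ. The Kif3b groups overlapped around a log2 fold change of 0.00, with a 95% interval of -0.11 to 0.11. Kif3c, another partner of Kif3a, had 298, 312 and 339 in Control and 232, 241 and 238 in STZ, and fell by 0.42 on the log2 scale (SE 0.08, FDR = 3.6e-05, edgeR). Kif17 had 10 to 24 reads per sample and an interval of -0.34 to 0.89.

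Among the remaining kinesins, those that shorten microtubules at centrioles and poles were lower. Kif24, a kinesin-13 that restrains cilium assembly at the mother centriole in cycling cells, had 302, 304 and 297 normalized counts in Control and 195, 215 and 204 in STZ. The Control samples were close together and well above the STZ samples, and the log2 fold change was -0.56 (SE 0.09, FDR = 4.9e-07, edgeR). Kif2a, the kinesin-13 of spindle poles, had 729, 724 and 805 in Control and 655, 647 and 639 in STZ, a log2 fold change of -0.22 (SE 0.06, FDR = 0.0012, edgeR). Kifc2, a minus-end motor known from neurons, had 53, 59 and 58 reads in Control and 41, 43 and 47 in STZ. Scaled to library size these did not overlap, and the log2 fold change of Kifc2 was -0.60 (SE 0.19, FDR = 0.0066, edgeR). The related Kifc3, a minus-end motor at epithelial junctions, did not pass, with an interval of -0.06 to 0.11.

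Kif7, the kinesin-4 that organizes the ciliary tip for Hedgehog signalling, had 244, 218 and 201 normalized counts in Control and 276, 249 and 255 in STZ. The lowest STZ sample was only slightly above the highest Control sample. Its log2 fold change of 0.24 (SE 0.09, FDR = 0.0235, edgeR) missed the threshold in 5 of 15 other settings, and its span overlaps Ticrr. Kif26b, a kinesin without motility, had 138, 102 and 120.4 in Control and 109, 109 and 63.1 in STZ. These groups overlapped, and the call of Kif26b (log2 fold change -0.38, FDR = 0.0368, edgeR) held in 11 of 15 other settings. It was lost without STZ replicate 3 (-0.14, FDR = 0.462) and without Control replicate 1 (-0.28, FDR = 0.167). Omitting Control replicate 3 gave an FDR of 0.0625 (edgeR), and DESeq2's Wald test gave 0.123. Kif21a and Kif27 did not pass, with intervals of -0.17 to 0.03 and -0.74 to 0.82. The 10 kinesins not tested were Kif22, Kif5a, Kif1a, Kif6, Kif9, Kif21b, Kif19b, Kif26a, Kif28p and Kif4b, each with at most 13 reads in any sample.

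Reads of some kinesins may not be fully separated from those of other genes. In the GRCr8 annotation the spans of Kif11, Kif18a, Kif20a, Kif4a, Kif2a, Kif3c and Kifc2 overlap Ide, Mettl15, Cdc23, Pdzd11, Dimt1, Asxl2 and Foxh1 in this order, and that of Kif15 overlaps RGD1311745. Pseudogene copies are annotated for Kif11, Kif18b, Kif1c and Kif13a, and Kif4b is itself one, so counts of uniquely mapped reads are less certain for these genes and for Kif4a.

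**Figure D3:**
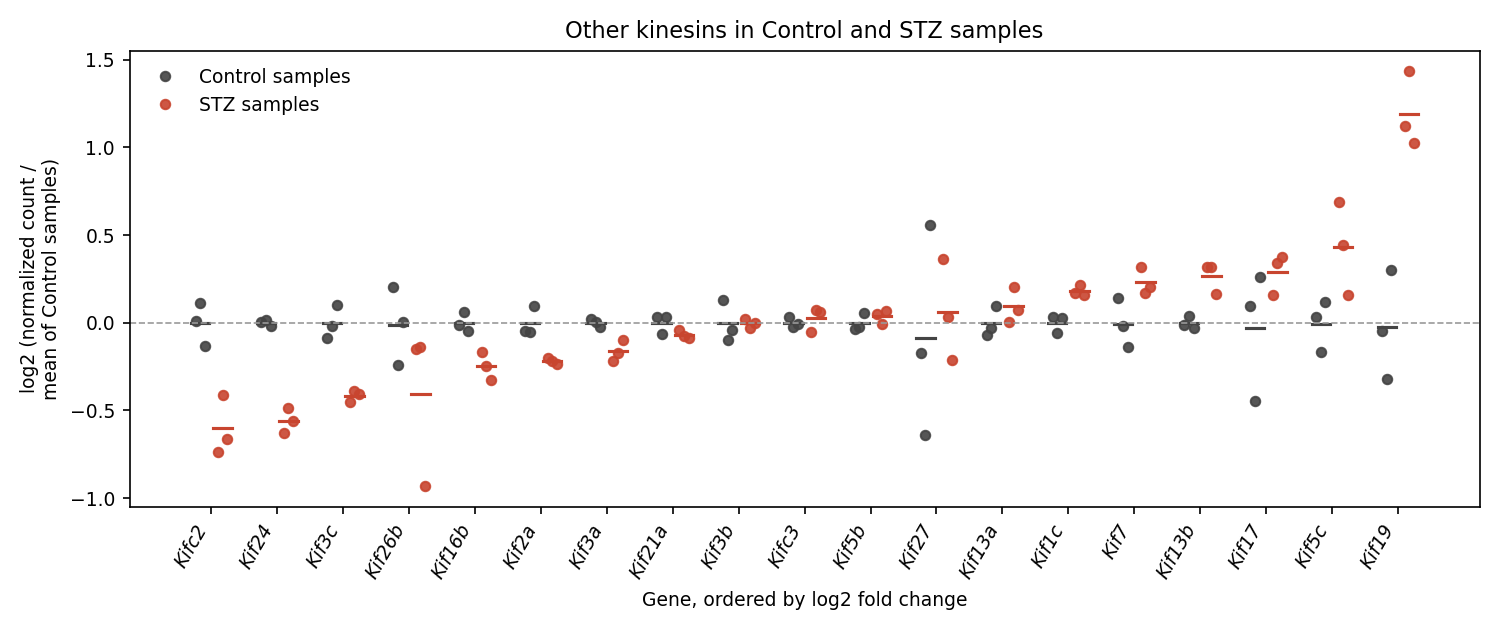
Normalized counts of the 19 other kinesins tested, each divided by its Control mean and shown on a log2 scale (y axis), by gene (x axis). Points are single samples, 3 Control (grey) and 3 STZ (red), and short lines are means of the log2 values; Kif19 stands highest, and 1 STZ point of Kif26b lies far below the other 2.

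Kinesins work with fixed partners, whose values are set beside them. In centralspindlin, Kif23 pairs with Racgap1, which had 2415, 2454 and 2398 normalized counts in Control and 1567, 1569 and 1611 in STZ. The log2 fold change of Racgap1 was -0.61 (95% interval -0.70 to -0.53) against -0.12 for Kif23 (-0.20 to -0.04), so the intervals of these partners did not overlap. Ect2, the exchange factor that centralspindlin recruits, was at -0.27. Of the 4 genes of the passenger complex that Kif20a carries, 3 were lower, with log2 fold changes of -0.48 for Cdca8, -0.30 for Incenp and -0.12 for Aurkb, while Birc5 did not pass (95% interval -0.22 to 0.00). Plk1, the kinase that docks on Kif20a, was at -0.44. Prc1, which brings Kif4a to the midzone, was at -0.15 beside -0.12 for Kif4a. Tpx2, which binds Kif11 and Kif15, was at -0.20, and Aurka, the kinase it activates, at 0.14. Cenpe, a kinetochore kinesin whose symbol lies outside the rule, was at -0.20. All of these but Birc5 passed an FDR of 0.05 in the same edgeR fit.

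Over the whole list of 19 spindle partners, 11 were lower and 5 higher, beside 25.1% and 25.9% of all genes, with a median log2 fold change of -0.15. Anln, an actin-binding protein of the cleavage furrow, and Hmmr, a spindle assembly factor, were the higher genes with the smallest p, at 0.35 and 0.27. Kinesin mRNAs and those of their mitotic partners thus both held members on either side of 0.

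**Figure D4:**
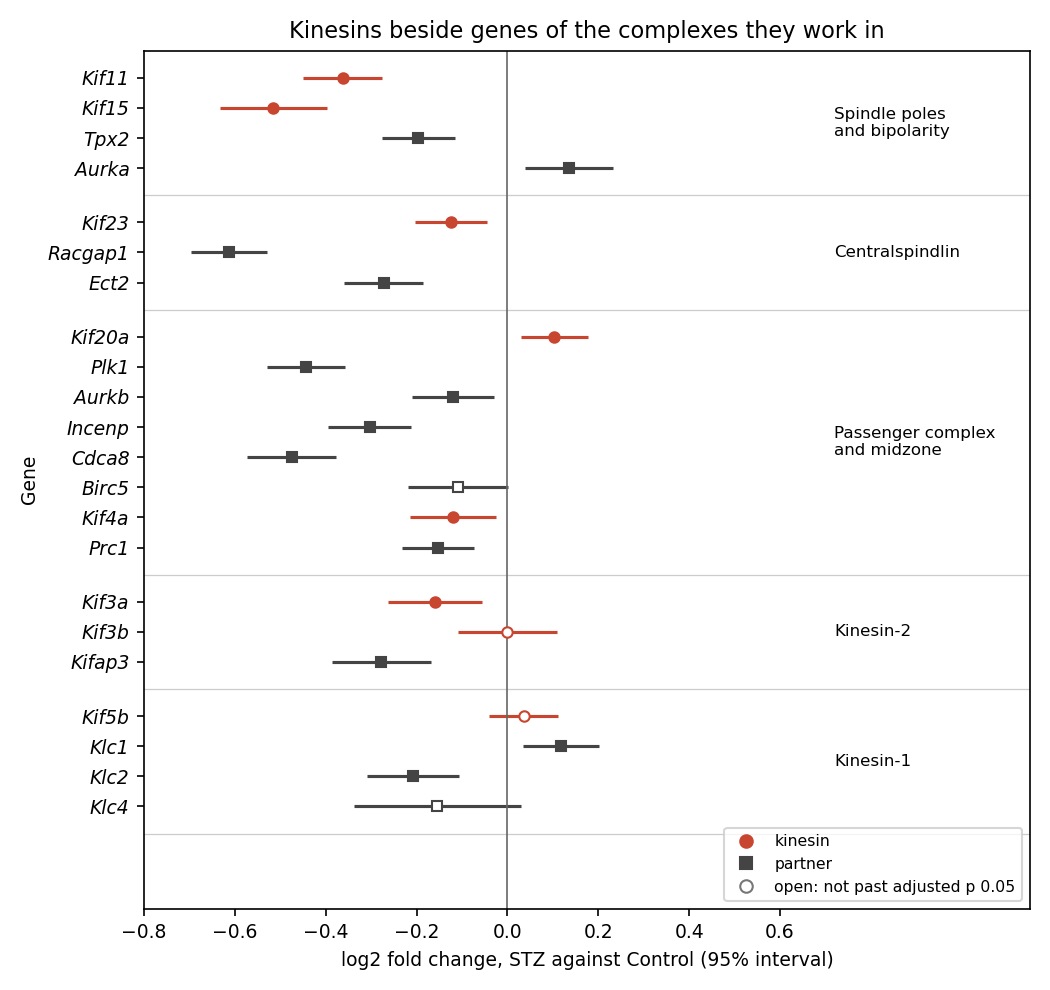
Log2 fold changes with 95% intervals, STZ against Control (x axis), of kinesins (red circles) and genes of the complexes they work in (grey squares), one gene per line (y axis), grouped by complex. Open symbols did not pass an FDR of 0.05; Racgap1 lies at -0.61 and Kif23 at -0.12, and Kif20a at 0.10 lies on the other side of 0 from Plk1, Cdca8, Incenp and Aurkb.

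For transport, the list of 12 kinesin light chains and adaptors had 11 genes tested, of which 5 were higher and 3 lower, beside 25.9% and 25.1% of all genes, with a median log2 fold change of 0.11. Trak1 and Trak2, which link kinesin-1 to mitochondria, were at 0.34 and 0.22, and the light chains Klc1 and Klc2 were at 0.12 and -0.21. Kifap3, the third subunit of the Kif3a and Kif3b motor, had 871, 913 and 866 normalized counts in Control and 763, 728 and 696 in STZ, a log2 fold change of -0.28. The values of the 3 subunits thus ran from -0.28 to 0.00, and the intervals of Kifap3 and Kif3b did not overlap. Of the intraflagellar transport genes that this motor carries, 12 of 14 listed were tested, with 1 higher, 6 lower and a median of -0.17, beside the same 25.9% higher and 25.1% lower over all genes. Ift27 and Ift57 had the smallest p, at -0.56 and -0.42.

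Dynein, which moves cargo the opposite way along microtubules, and its cofactor dynactin had 25 genes tested, with 12 higher, 2 lower (all genes 25.9% and 25.1%) and a median log2 fold change of 0.08. Dynlt3 and Dynll2, both dynein light chains, were at 0.43 and 0.37. The rows named for tubulins and the gamma-tubulin complex, the track and its nucleator, had 13 of 20 tested, with 5 higher, 5 lower (all genes 25.9% and 25.1%) and a median of 0.00. Tubb4b and Tubb6 were at 0.57 and 0.50, whereas Tubb5 was at -0.20. Tuba4a and Tubb3 passed both thresholds, at 1.47 and 1.91, with means of 19.2 and 6.17 normalized counts in Control and 53.2 and 24.9 in STZ.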

How the data were processed

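RNA was sequenced from stranded mRNA libraries of 3 Control and 3 STZ samples. Alignment to Rnor6 was done by the authors with STAR 2.7.10a, and the table they deposited holds raw featureCounts counts of uniquely mapped reads. The strand setting is not given in the sources used here. From these, edgeR 4.0.16 (R 4.3.3) gave TMM scaling, the filterByExpr filter and quasi-likelihood p-values with Benjamini-Hochberg adjustment (FDR) over all genes. DESeq2 1.42.0 and limma 3.58.1 served as alternatives. Standard errors (SE) follow from the size of the log2 fold change and the F statistic. The members and lists were chosen with earlier results of these data known, so no list was tested as a set. Sample values are given for the 12 mitotic kinesins, for kinesins past both thresholds, and for up to 6 rises and 6 falls among other kinesins that pass an FDR of 0.05 and average 50 or more normalized counts. Kif3a, Kif3b, Kif5b, partners and low genes were added after their values were seen. On simulated counts for 11785 genes, 196 of 200 changed genes were recovered and 13 unchanged genes called. These numbers are not split by size of change, so they give no rate for steps as small as those of the mitotic kinesins. Promoter sequences and overlapping spans came from RefSeq (GRCr8). Transcript lengths were not used here, so levels were not compared between genes. Groups of 3 allow no exact two-sided permutation p below 0.1, so none is given.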

Additional observations from a re-analysis of the deposited data

How the results depend on the processing

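Across 447 refits of single kinesins under all alternatives but glmTreat, 418 kept their call, 28 lost it and 1 gained it. None reversed, meaning that no kinesin changed sign while passing an FDR of 0.05 in the main or the alternative fit. Kif3b (-0.045 to 0.064), Kif27 (-0.19 to 0.18) and Kifc3 (-0.0054 to 0.070), which did not pass, took either sign across settings. Mitotic kinesins higher numbered 0 with library size only, under the upper quartile and with glmTreat, and 0 to 1 when a sample was omitted. Mitotic kinesins lower numbered 0 with glmTreat and 5 to 9 when a sample was omitted. Their median was -0.20 with library size only and -0.20 to -0.14 when a sample was omitted. Other kinesins higher numbered 3 with DESeq2's Wald test, 0 with glmTreat and 3 to 5 when a sample was omitted, and other kinesins lower numbered 0 with glmTreat. The median of the other kinesins was 0.017 when all samples had to hold 10 counts, 0.0072 with at least 0.5 CPM in 1 sample, 0.0090 under the upper quartile and -0.0054 with library size only, and -0.015 to 0.026 when a sample was omitted. Kinesins past the fold threshold numbered 2 with no filter, Kif26a being added, and 0 with glmTreat. All genes called fell to 112 with glmTreat, which requires the change itself to exceed the fold threshold; the cause of the other shifts was not tested. Of all genes called, 50.8% were higher, against 43.3% with library size only. Deviations of same-numbered samples from their group means correlated at 0.0475, -0.0398 and 0.0746 over the genes tested, so no strong shared shift was seen. Whether same-numbered samples were handled together is not given in the sources used here, and these values cannot decide it. With the replicate block 9 mitotic kinesins were lower, 1 was higher, and no kinesin changed its call. Replicates of a group differed by more than counting noise alone (chi-square over degrees of freedom 1.80 or more). Whether they were separate libraries or cultures cannot be read from this value. Kif17 and Kif27 have few reads and wide intervals, so small changes were not detectable in them.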

Other observations

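Of the kinesins removed by the filter, Kif26a, an atypical kinesin, had 0, 0 and 1 reads in Control and 4, 3 and 5 in STZ. With no filter edgeR gave it an FDR of 0.0451, which rests on these few reads. Kif1a, the axonal vesicle motor, had 0 reads in every Control sample and 1, 4 and 1 in STZ (FDR = 0.0945 with no filter, edgeR). Kif6 had 5, 4 and 6 reads in Control and 1, 0 and 3 in STZ (FDR = 0.0525 with no filter, edgeR). These samples hold too few such reads for a fold change.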
